A study of Mus musculus with 18 samples.

Results

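Zfp979 and Zfp984 are zinc finger genes of mouse chromosome 4, and both varied from library to library in mouse spleen far more than most genes did. They were chosen by symbol, as 2 of the 19323 gene symbols in the deposited expression table, because their values over all 18 libraries had looked like possible on-off variation. All levels of the pair were therefore known when they were chosen, and they are described below without a test. Both genes passed the filter on low values, which asked for at least 1 FPKM in at least 3 libraries and left 12967 genes. FPKM corrects fragment numbers for how long a transcript is and how many fragments were mapped. It does not correct for differences in RNA composition, and summed FPKM and the erythroid marker share differed between libraries. Comparisons between libraries are limited by this, and those between genes by shared sequence, both described below.

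The libraries were made from spleen RNA of ICR mice, an outbred stock, aged 10 weeks, with 3 libraries in each of 6 groups. HS_AOSFMT, HS_conFMT, HS_AOS and HS shared a high fat diet with streptozotocin (STZ), a toxin of insulin-producing cells. HS_AOS also received AOS at 10 mg/kg, an agent whose abbreviation the labels do not spell out, and HS received nothing further. HS_AOSFMT carried the treatment label of a faecal microbiota transplant (FMT) named after AOS at 10 mg/kg, and HS_conFMT that of a control FMT. AOS received AOS at 10 mg/kg without diet or STZ, and control received none of these. The labels describe neither the donors of the transplants nor the relatedness of the mice, and no genotype is given. They also do not state that the 3 libraries of a group came from separate animals, so the p-values below measure the spread between these libraries.

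Zinc finger proteins of this class carry a KRAB domain, which binds the co-repressor TRIM28 (KAP1), and an array of fingers that reads DNA sequence. TRIM28 brings histone methylation and DNA methylation machinery to the bound site, and many such proteins silence retroelements. In mice the genes lie in clusters that arose by duplication, and members of a cluster can differ between strains. RefSeq gives Zfp979 the synonym Ssm1b, the name of a strain-specific modifier of transgene methylation in mice. RefSeq gives Zfp984 the synonym Gm13157.

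In mm10 with the GENCODE M21 annotation, Zfp979 (ENSMUSG00000066000) lies at chr4:147611937-147642513 on the minus strand. Zfp984 (ENSMUSG00000078495) lies at chr4:147753974-147809788, also on the minus strand. The genes are 111460 bases apart, with 5 annotated genes between them, of which 1, Zfp534, has an entry in the table. The promoters of the pair are shown because the genes moved together and because their upstream sequence is related. Each holds 250 bases before and 50 bases after a RefSeq start (GRCm38.p6), both read along the minus strand. They lie at chr4:147642459-147642758 for Zfp979 and chr4:147809739-147810038 for Zfp984. The RefSeq gene of Zfp984 reaches upstream to chr4:147812229, so its promoter here is that of an inner start. Sequence before that outer end was not read. Capitals mark bases covered by runs of at least 12 bases that occur in both promoters, which form 3 stretches in each.
Zfp979: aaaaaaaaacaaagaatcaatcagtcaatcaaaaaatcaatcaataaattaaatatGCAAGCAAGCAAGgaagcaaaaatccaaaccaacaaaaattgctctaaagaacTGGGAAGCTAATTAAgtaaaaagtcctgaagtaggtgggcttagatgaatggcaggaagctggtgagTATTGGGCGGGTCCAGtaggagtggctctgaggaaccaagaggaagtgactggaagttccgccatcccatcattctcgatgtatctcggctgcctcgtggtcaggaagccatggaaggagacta
Zfp984: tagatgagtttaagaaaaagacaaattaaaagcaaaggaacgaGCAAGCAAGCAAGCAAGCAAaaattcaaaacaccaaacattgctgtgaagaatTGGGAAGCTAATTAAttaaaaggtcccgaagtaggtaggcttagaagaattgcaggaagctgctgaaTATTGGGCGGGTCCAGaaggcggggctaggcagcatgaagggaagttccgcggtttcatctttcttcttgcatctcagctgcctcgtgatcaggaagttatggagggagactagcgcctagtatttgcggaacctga
The first stretch as printed is a GCAA repeat, longer in Zfp984 than in Zfp979, so there the capitals are not the same run in full. The capitals cover 44 bases of the Zfp979 promoter and 51 bases of the Zfp984 promoter.

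An alignment gave 73.3% identity between the promoters of Zfp979 and Zfp984 over their 300 bases. The longest shared run, TATTGGGCGGGTCCAG, contains a GC box (GGGCGG) that overlaps a CCAAT box read on the opposite strand. That 16-base run was found in 9 of 32851 mouse promoters of the same length (0.0274%), in 9 genes that all lie on chromosome 4. The 15-base run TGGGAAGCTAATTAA was found in 12 promoters (0.0365%), again all on chromosome 4. Searched on both strands, GGGCGG occurred once in each of the pair and in 35.7% of all promoters. The ETS core GGAAGT occurred 2 times in each of the pair and in 23.8% of all promoters. CCAAT occurred 1 time in Zfp979 and 2 times in Zfp984, and in 37.4% of all promoters. TATAAA had 0 matches in both and occurred in 13.6% of all promoters. The Zfp979 promoter held 5 CpG sites and the Zfp984 promoter 9, against a median of 7.0 over all promoters. These matches describe the letters and do not show binding.

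Zfp979 stood at 23.0, 9.35 and 16.48 FPKM in HS_AOSFMT and at 8.05, 0.61 and 1.93 FPKM in HS_conFMT. It was at 0.03, 0.03 and 0.09 FPKM in HS_AOS, and at 9.2, 5.54 and 9.3 FPKM in HS. In AOS the values were 0.2, 7.53 and 0.66 FPKM, and in control they were 5.64, 3.74 and 9.17 FPKM. The HS_AOS libraries were thus the 3 lowest of the 18 and the HS_AOSFMT libraries the 3 highest. AOS and HS_conFMT each combined 1 library at the level of HS and control with 2 well below it. Group means were 16.3 ± 6.83 FPKM in HS_AOSFMT, 3.53 ± 3.97 in HS_conFMT, 0.05 ± 0.0346 in HS_AOS, 8.01 ± 2.14 in HS, 2.8 ± 4.11 in AOS and 6.18 ± 2.76 in control (SD, n = 3 each).

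Zfp984 stood at 13.02, 7.48 and 11.77 FPKM in HS_AOSFMT and at 5.99, 2.44 and 2.23 FPKM in HS_conFMT. It was at 1.4, 1.78 and 1.13 FPKM in HS_AOS, and at 6.22, 4.61 and 8.93 FPKM in HS. In AOS the values were 2.0, 5.18 and 2.19 FPKM, and in control they were 4.16, 3.27 and 6.81 FPKM. HS_AOS again held the 3 lowest libraries, and the same single libraries of AOS and HS_conFMT were the high ones in their groups, but no library was under 1 FPKM. Group means were 10.8 ± 2.91 FPKM in HS_AOSFMT, 3.55 ± 2.11 in HS_conFMT, 1.44 ± 0.327 in HS_AOS, 6.59 ± 2.18 in HS, 3.12 ± 1.78 in AOS and 4.75 ± 1.84 in control (SD, n = 3 each).

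**Figure D1:**
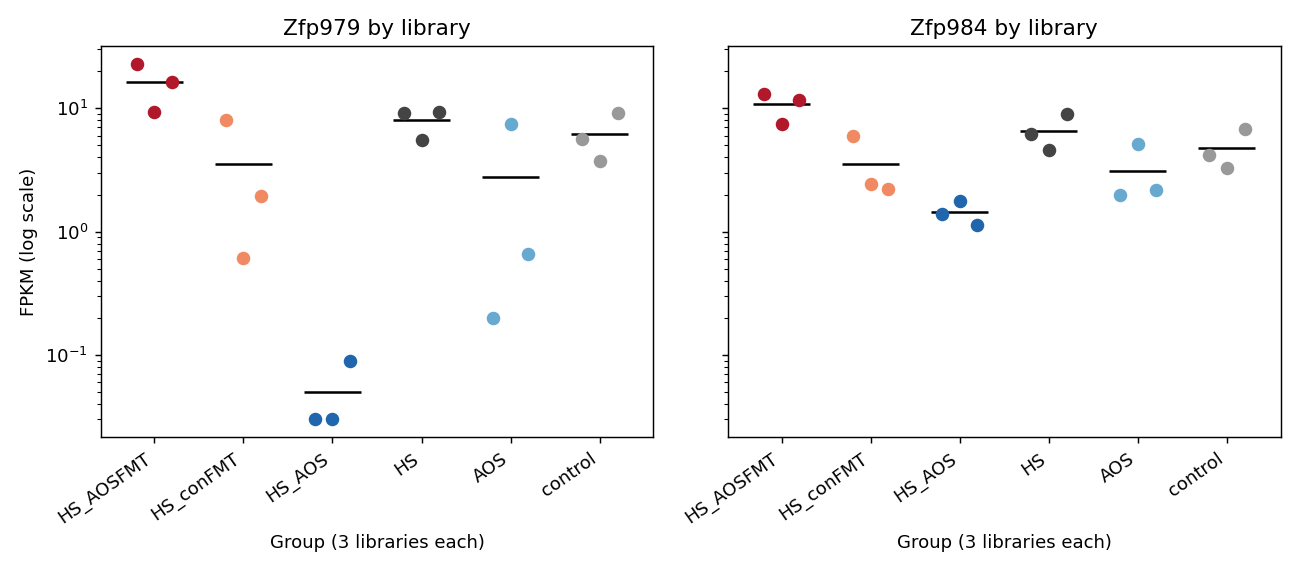
FPKM on a log scale of Zfp979 (left) and Zfp984 (right) in each of 18 libraries by group; points are libraries and bars are group means. The 3 HS_AOS libraries are the lowest for both genes, at 0.03 to 0.09 FPKM for Zfp979 and 1.13 to 1.78 FPKM for Zfp984, and in HS_conFMT and AOS 1 library stands above the other 2.

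By group mean both genes had the same order, HS_AOSFMT, HS, control, HS_conFMT, AOS and HS_AOS from high to low. Among neighbours in that order, HS and control, control and HS_conFMT, and HS_conFMT and AOS overlapped in their libraries for both genes. HS_AOS and AOS did not overlap for either gene, as was the case, in the lower direction, for 10.4% of the genes tested, although the AOS library nearest to HS_AOS was at 0.2 FPKM for Zfp979. HS_AOSFMT and HS did not overlap for Zfp979 by the narrow margin of 9.35 against 9.3 FPKM, and they overlapped for Zfp984. In bulk spleen RNA, fewer cells of a type and less RNA per cell cannot be told apart.

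In HS_AOS against HS, Zfp979 differed by -5.74 and Zfp984 by -2.09, as differences of group means of log2(FPKM + 0.1). On mean FPKM, HS was 160-fold above HS_AOS for Zfp979 and 4.58-fold above it for Zfp984. The groups did not overlap for either gene, and the same held, in the lower direction, for 2.74% of the genes tested. The HS_AOS values of Zfp979 lie near the lower end of what a table with 2 decimals can show, and with a pseudocount of 1 its log2 difference was -3.07. In AOS against control, given AOS without diet or STZ, the differences were -2.29 for Zfp979 and -0.66 for Zfp984, and the groups overlapped for both genes. Both differences came from the same 2 AOS libraries, while the third lay within the control range.

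In HS_AOSFMT against HS_conFMT, the comparison of the transplants, the log2 difference was 2.76 for Zfp979 and 1.68 for Zfp984. Every HS_AOSFMT library was above every HS_conFMT library for both genes, as was the case for 21.5% of the genes tested. In HS_AOSFMT against HS the differences were 0.96 and 0.71. There the groups did not overlap for Zfp979, in a comparison where 30.8% of the genes tested were higher without overlap. The summed share of erythroid markers was 8.54% to 13.9% of the FPKM in HS_AOSFMT and 20.5% to 23.3% in HS, and that of T cell markers 0.0389% to 0.0493% in HS_AOSFMT and 0.0242% to 0.0304% in HS. Neither list overlapped between these groups. B cell markers were also higher without overlap in HS_AOSFMT (0.275% to 0.346%, against 0.217% to 0.256% in HS). So were adipocyte (0.0111% to 0.0187%, against 0.00139% to 0.00736%) and Y-linked markers (0.0206% to 0.0218%, against 0.0152% to 0.0168%). Pancreatic acinar markers were lower without overlap (0.000412% to 0.00533%, against 0.251% to 2.27%). The other marker lists overlapped, and the part of any list in the differences was not tested. HS_conFMT against HS gave -1.80 for Zfp979 and -0.97 for Zfp984, and HS against control gave 0.42 and 0.48, with overlapping groups for both genes each time. The comparisons of HS_AOS, HS_AOSFMT and HS_conFMT share the HS libraries, and HS and AOS share the control libraries, so these differences are not independent of each other.

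The spacing of the libraries was then described. Sorting the 18 libraries by log2(FPKM + 0.1) and taking the widest step with at least 3 libraries on either side gave 1.42 for Zfp979, between 0.66 and 1.93 FPKM, with 6 libraries below. Of the genes tested, 63 (0.486%) had a step at least as wide. This width rests on single libraries: without HS_conFMT 3 the step was 2.34, and without AOS 1 it was 1.90. For Zfp984 the widest step was 0.41, between 2.44 and 3.27 FPKM, and 542 genes (4.18%) reached it; it was 0.75 without control 2. The full span was 7.47 for Zfp979, reached by 49 genes (0.378%), and 3.42 for Zfp984, reached by 326 genes (2.51%), whereas the median span over all genes was 0.73. In FPKM the highest library was 767-fold above the lowest for Zfp979 and 11.5-fold for Zfp984. The lowest Zfp979 value, 0.03 FPKM, is near the floor of a table with 2 decimals. The fold of Zfp979 therefore rests on that floor, and its span depends on the pseudocount. Within groups, the pooled SD of log2(FPKM + 0.1) was 1.29 for Zfp979 and 0.56 for Zfp984.

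The 2 genes varied together across libraries. Pearson's r of log2(FPKM + 1) was 0.965 and Spearman's rho 0.981 over the 18 libraries, which share tissue, groups and depth scaling. Taken as deviations from the group means, r was 0.892. Without the 2 libraries farthest from the median of Zfp979, HS_AOS 1 and 2, r was 0.96 over 16 libraries. In linear FPKM, a line with slope 0.549 and intercept 1.66 FPKM described Zfp984 from Zfp979, with a residual SD of 0.792 FPKM. The intercept describes the point that Zfp984 kept a level of 1.13 to 1.78 FPKM in the HS_AOS libraries, where Zfp979 was near 0. Zfp979 was the higher gene of the pair in 11 libraries and the lower in 7, and the ratio of Zfp979 to Zfp984 ran from 0.0169 to 1.77.

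**Figure D2:**
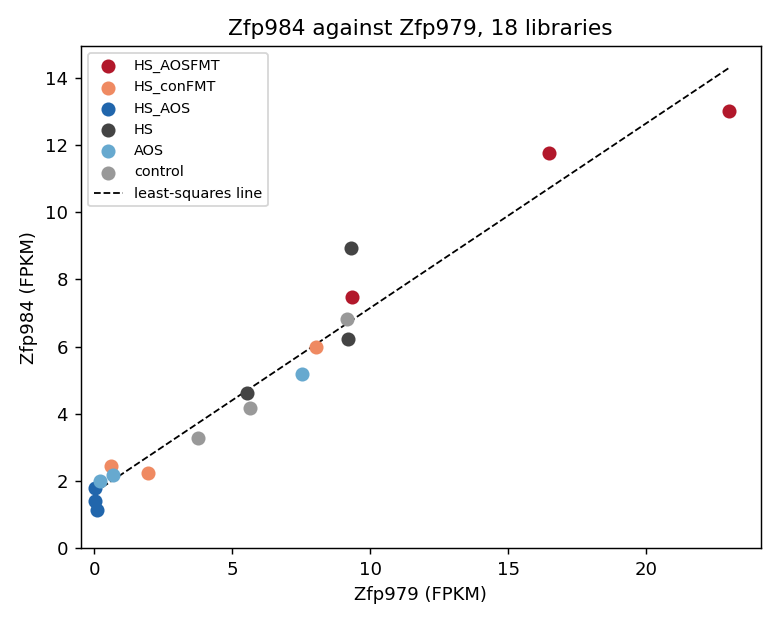
FPKM of Zfp984 against FPKM of Zfp979 in 18 libraries, coloured by group, with the least-squares line (slope 0.549, intercept 1.66 FPKM). Libraries run along the line from HS_AOS at the lower left to HS_AOSFMT 1 at 23.0 and 13.02 FPKM, and the single high libraries of HS_conFMT and AOS lie among those of HS and control.

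Reads of related genes could be assigned to the wrong member, so the sequence they share was measured. Of the 4105 stretches of 50 bases in the Zfp979 transcripts, 27.1% also occurred in transcripts of another gene, mainly Zfp600 (18.9%), Rex2 (14.5%) and Zfp978 (13.2%). Of the 2682 stretches in Zfp984, 54.5% did, mainly in Gm13212 (46.9%). Zfp979 and Zfp984 shared 0 such stretches. The levels of both genes are therefore uncertain to an extent that depends on how such reads were counted, which is not given in the sources used here. Gm13212, an entry without an annotated role, lay between 15.1 and 27.7 FPKM and had r of -0.69 with Zfp979 and -0.56 with Zfp984. Zfp600 lay between 0.04 and 0.38 FPKM.

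The neighbouring gene Zfp985, another zinc finger gene of the cluster at chr4:147553277-147585198 on the plus strand, followed the pair. It stood at 2.78, 1.5 and 2.47 FPKM in HS_AOSFMT, 1.34, 0.69 and 0.46 in HS_conFMT and 0.36, 0.32 and 0.29 in HS_AOS. It stood at 1.71, 0.91 and 1.63 FPKM in HS, 0.49, 1.43 and 0.84 in AOS and 1.2, 0.73 and 1.21 in control. HS_AOS again held the 3 lowest libraries. Its r was 0.933 with Zfp979 and 0.964 with Zfp984, and 0.842 and 0.887 as deviations from group means. It shared 0.321% of its 50-base stretches with Zfp979 and 2.61% with Zfp984. Its promoter, at chr4:147553027-147553326, was 84.7% identical to that of Zfp979 and 77.0% to that of Zfp984, and it holds both shared runs named above. Both runs also occur in the promoters of Gm13212 and Zfp982, which had r of -0.69 and -0.52 with Zfp979. The 15-base run occurs in the promoter of Zfp534 too (r of 0.47 with Zfp979).

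Zfp985 was tested with limma on log2(FPKM + 1), over all genes with Benjamini-Hochberg adjustment and a threshold of 0.05. The F-test for any difference between the 6 groups called it (adjusted p = 0.0279), in a test that called 5.08% of genes. It was higher in HS_AOSFMT than in HS_conFMT (log2 change 0.84 ± 0.21 SE, limma adjusted p = 0.0351, all 3 libraries above), where 5.85% of genes were called and 4.81% were called higher. In HS_AOS against HS the change was -0.85 ± 0.21 SE with limma adjusted p = 0.562; the groups did not overlap. limma called 0 genes in that comparison (0%), where 674 had an unadjusted p under 0.05. The F-test call ended without HS_AOSFMT 1 (0.117), HS_AOSFMT 3 (0.118) or any one HS_AOS library (0.0542 to 0.064). The call between the transplants ended without HS_AOSFMT 1 (0.132), HS_AOSFMT 3 (0.109), HS_conFMT 2 (0.0566) or HS_conFMT 3 (0.126). Zfp985 was found through its likeness to the pair over these same libraries, so its tests are not independent of the choice.

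Other tested zinc finger genes of the cluster had lower r with the pair than Zfp985. Zfp534, which lies between the pair, stood at 4.79 ± 0.967 FPKM in HS_AOSFMT and 2.76 ± 0.41 in HS_conFMT (limma adjusted p = 0.0557), and at 3.13 ± 0.17 in HS_AOS and 3.94 ± 1.19 in HS (limma adjusted p = 0.997). Its r was 0.47 with Zfp979 and 0.63 with Zfp984, and 0.29 and 0.54 as deviations from group means. Zfp982 had r of -0.52 with Zfp979 and was called by the F-test (limma adjusted p = 0.0362), with its highest mean in AOS, 5.14 ± 0.925 FPKM against 3.14 ± 0.575 in control (limma adjusted p = 0.231 for that comparison). The F-test call of Zfp982 ended without any one of 9 of the 18 libraries, with adjusted p up to 0.133 by limma without AOS 1. Zfp933, Zfp991 and Zfp992 were not called by the F-test (limma adjusted p = 0.694, 0.615 and 0.452) and had r with Zfp979 of 0.06, 0.20 and 0.40. Zfp980, Zfp981, Zfp987, Zfp600 and Rex2 were too low to be tested, with a highest single value of 1.41 FPKM for Rex2.

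**Figure D3:**
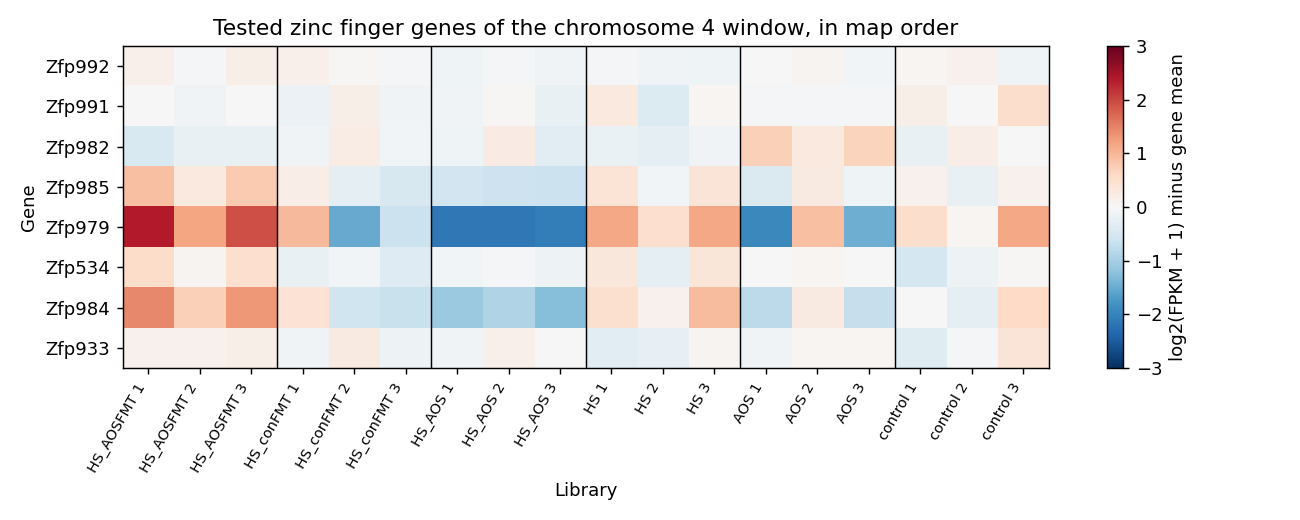
log2(FPKM + 1) minus the gene's mean over 18 libraries (colour) for the 8 tested genes named Zfp and a number in the chromosome 4 window. Rows are genes in map order and columns are libraries, grouped. Zfp985, Zfp979 and Zfp984 are low in the 3 HS_AOS libraries and high in the 3 HS_AOSFMT libraries. Zfp982 is highest in AOS 1 and AOS 3, at 5.78 and 5.56 FPKM.

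Within 2 Mb of either gene, 156 genes are annotated, 55 besides the pair have an entry, and 40 of these were tested. The F-test called 4 of the 40 (10%, against 5.08% of all genes), Zfp985, Zfp982 and Plod1 among them. Plod1, a collagen lysyl hydroxylase, stood at 14.3 ± 1.53 FPKM in HS_AOSFMT and 7.31 ± 0.752 in HS_conFMT, and rose there by a log2 change of 0.88 (limma adjusted p = 0.0101, all 3 libraries above). Slc25a33, a mitochondrial nucleotide carrier, stood at 6.11 ± 0.849 FPKM in HS_AOSFMT and 4.36 ± 0.52 in HS_conFMT (limma adjusted p = 0.0379). In all, 4 of 40 neighbours, Zfp985 among them, were called higher in HS_AOSFMT than in HS_conFMT and 0 lower (10%, against 4.81% of all genes higher and 1.04% lower). The count was 2 after rescaling to TPM and 1 with the 2 groups fitted alone. In HS_AOSFMT against HS 1 of the 40 was called, in a comparison that called 9.23% of genes, and 0 were called without any one of these 6 libraries. The call of Plod1 between the transplants ended without HS_conFMT 1 (0.0506), and that of Slc25a33 without any one HS_AOSFMT library, HS_conFMT 1, HS_conFMT 3 or control 2 (up to 0.178). Of the 4 F-test calls, 0 were left without HS_AOSFMT 3. In HS_AOS against HS, HS_conFMT against HS, HS against control and AOS against control limma called 0 of 40 neighbours, with 3, 2, 6 and 3 at an unadjusted p under 0.05. Over all genes these comparisons called 0%, 0.00771%, 0.0154% and 0.00771%. Without HS 1, Plod1 was called in HS_AOS against HS and in HS against control.

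**Figure D4:**
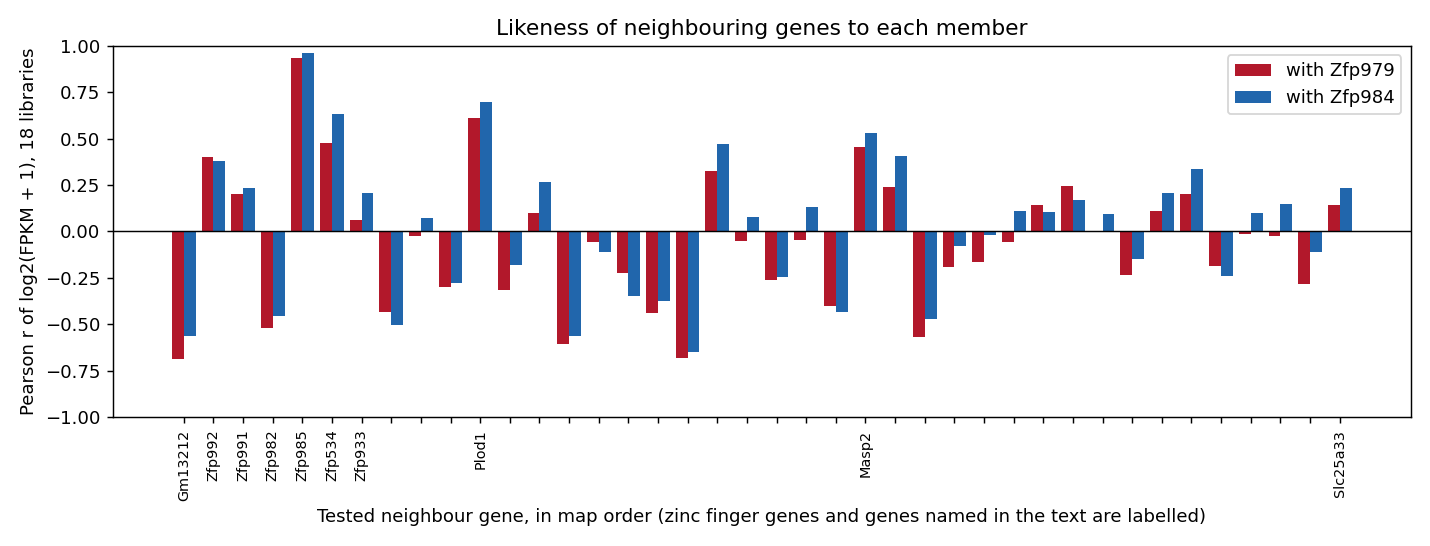
Pearson's r of log2(FPKM + 1) over 18 libraries between each of the 40 tested neighbours and Zfp979 (red) or Zfp984 (blue), in map order, with zinc finger genes and genes named in the text labelled. Zfp985 stands alone at 0.933 and 0.964, and Gm13212 (-0.69 and -0.56) is among the neighbours that run the other way.

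Over all genes tested, Zfp984 and Zfp985 were the genes most like Zfp979, followed by Gt(pU21)140Imeg (r = 0.878, rho = 0.934), Ywhah (r = 0.793) and Grb10 (r = 0.749). For Zfp984 the order was Zfp979, Zfp985, Gt(pU21)140Imeg (r = 0.955, rho = 0.946), Mmp19 (r = 0.817) and Hspb1 (r = 0.779). Gt(pU21)140Imeg, an entry with no position in the annotations used, averaged 7.52 ± 1.41 FPKM in HS_AOSFMT, 3.88 ± 1.03 in HS_conFMT, 2.88 ± 0.512 in HS_AOS, 4.86 ± 1.02 in HS, 3.92 ± 0.675 in AOS and 4.17 ± 1.06 in control. Within groups its r with Zfp984 was still 0.925. The adaptor gene Ywhah, the metalloproteinase gene Mmp19 and the small heat shock gene Hspb1 had within-group r of 0.24 with Zfp979, 0.48 with Zfp984 and 0.14 with Zfp984, so their likeness lay mostly between groups. Grb10, an imprinted signalling adaptor, had a within-group r of 0.50 with Zfp979.

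The genes with the lowest r were the same 3 for both: Abcb8, Vmn2r96 and Akr1e1. Abcb8, a mitochondrial transporter gene at chr5:24393663-24410054, had r of -0.893 with Zfp979 and -0.916 with Zfp984. It stood at 5.42, 5.35 and 5.17 FPKM in HS_AOSFMT and 6.39, 6.43 and 6.72 in HS_conFMT. It stood at 8.31, 7.78 and 7.9 FPKM in HS_AOS and 6.42, 6.16 and 5.58 in HS. Within groups its r was -0.536 with Zfp979 and -0.631 with Zfp984. All 3 genes were picked for low r over these same libraries, so their group levels are not independent of the choice. Akr1e1, an aldo-keto reductase gene at chr13:4590750-4609174, averaged 7.17 ± 0.643 FPKM in HS_AOS and 3.56 ± 1.04 in HS, with r of -0.874 with Zfp979 and -0.906 with Zfp984. Vmn2r96, a vomeronasal receptor gene at chr17:18573151-18616003, ran from 0.45 FPKM in HS_AOSFMT 1 to 8.66 in HS_conFMT 2. Its r with Zfp979 was -0.888, and -0.860 within groups.

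**Figure D5:**
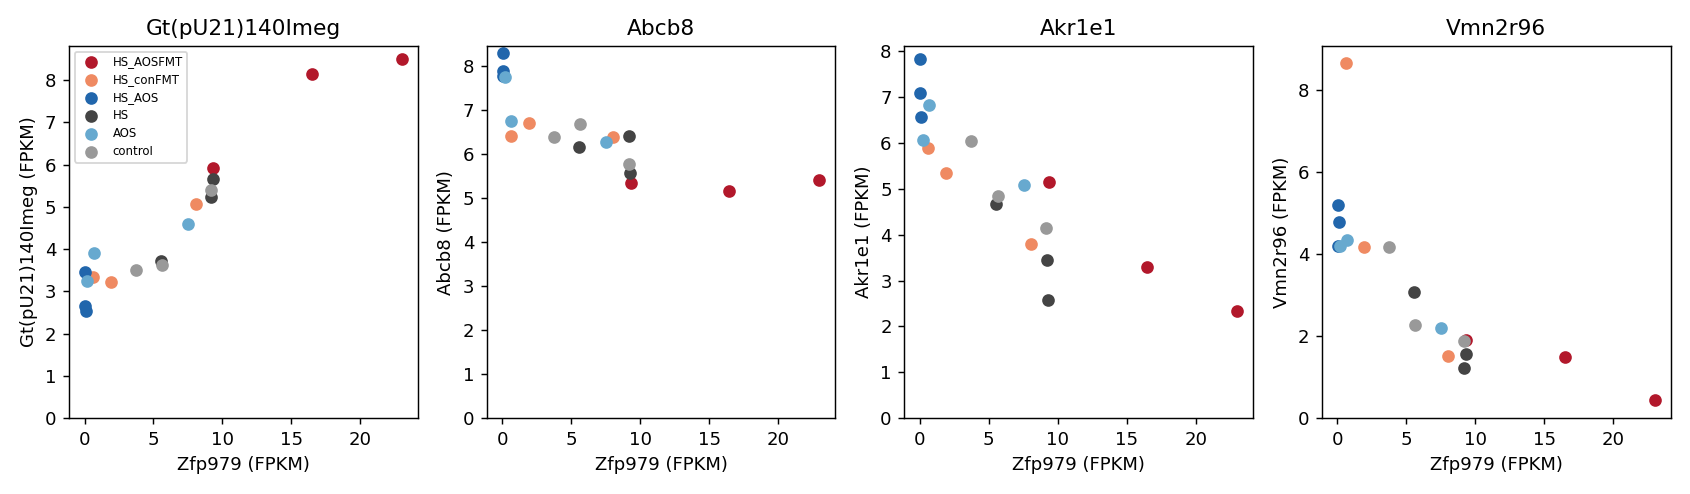
FPKM of Gt(pU21)140Imeg, Abcb8, Akr1e1 and Vmn2r96 against FPKM of Zfp979 in 18 libraries, coloured by group. Gt(pU21)140Imeg is higher where Zfp979 is higher, and the other 3 are lower; Vmn2r96 in HS_conFMT 2 (8.66 FPKM) stands above the rest.

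Among all genes named Zfp and a number, 306 were tested, the pair included, and 1, Zfp979 itself, spanned as much as Zfp979. The next largest spans belonged to Zfp965 (5.19), Zfp973 (4.33), Zfp967 (4.21) and Zfp966 (3.52), which lie in another cluster on chromosome 2. They also rest on low values and depend on the pseudocount. Zfp965 ran from 0.0 to 3.55 FPKM and Zfp973 from 0.0 to 1.91, while Zfp967 and Zfp966 had lowest values of 0.19 and 0.39 FPKM. The median span was 0.80 for Zfp genes and 0.73 for all genes. In HS_AOSFMT against HS, 60 of the 304 Zfp genes other than the pair rose and 0 fell (19.7%, against 8.08% of all genes called higher), with a median log2 change of 0.23 beside 0.10 over all genes. Without HS_AOSFMT 1 the count was 5 (1.64%), near the 1.42% of all genes then called higher. It was 28 without HS_AOSFMT 2 (9.21%, against 3.72%) and 13 without HS_AOSFMT 3 (4.28%, against 2.14%). It was 12 without HS 1 (3.95%, against 1.86%), 33 without HS 2 (10.9%, against 5.07%) and 19 without HS 3 (6.25%, against 2.67%). After rescaling to TPM the count was 44 (14.5%, against 6.88%), with medians of 0.36 for the Zfp genes and 0.23 for all genes. The erythroid, T cell, B cell, adipocyte, Y-linked and acinar marker shares given above moved with this contrast. Their part in the count was not tested. Zfp1 stood at 19.34, 16.24 and 18.35 FPKM in HS_AOSFMT and 9.53, 11.26 and 9.08 in HS (limma adjusted p = 0.00427), and Zfp953 at 3.77 ± 0.419 and 2.08 ± 0.0635 (limma adjusted p = 0.00478). Zfp958 stood at 14.0 ± 1.02 and 8.43 ± 0.88 FPKM (limma adjusted p = 0.00771), and Zfp451, which acts in SUMO transfer, at 14.9 ± 0.846 and 10.6 ± 0.18 (limma adjusted p = 0.0142, with the call lost without HS_AOSFMT 1, HS_AOSFMT 3 or HS 1). In HS_AOSFMT against HS_conFMT 21 rose and 1 fell (6.91% higher, against 4.81% of all genes). The count of higher genes there was 8 after rescaling to TPM (2.63%, against 1.82%) and 2 with the 2 groups fitted alone (0.658%, against 1.06%). It ran from 4 without HS_conFMT 1 to 40 without HS_conFMT 2 when a library of either group was left out. In the other 4 comparisons 0 of 304 were called.

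The co-repressor genes through which KRAB zinc finger proteins act, Trim28 and Setdb1 among them, were all 22 tested. The F-test called 1 (4.55%, against 5.08% of all genes), Chd3, a nucleosome remodeller (limma adjusted p = 0.0311). Chd3 averaged 51.6 ± 5.12 FPKM in HS_AOSFMT and 29.3 ± 3.74 in HS_conFMT (limma adjusted p = 0.0339). The F-test call ended without any one of 9 libraries (up to 0.155 without HS_AOSFMT 3), and the call between the transplants without any HS_AOSFMT library, HS_conFMT 1 or HS_conFMT 3 (up to 0.152). Resf1, a retroelement silencing factor, followed with an F-test adjusted p of 0.0519 by limma, the maintenance DNA methyltransferase gene Dnmt1 with 0.121 and Sumo2 with 0.154. In HS_AOSFMT against HS, 2 of the 22 were called higher and 1 lower (13.6%, against 9.23% of all genes). Resf1 rose to 27.5 ± 0.742 FPKM in HS_AOSFMT, against 19.2 ± 2.22 in HS (log2 change 0.50, limma adjusted p = 0.0112), and was not called without HS_AOSFMT 1 (0.0503) or HS 1 (0.0569). Fam208a, which encodes the silencing factor Tasor, stood at 18.3 ± 1.3 FPKM in HS_AOSFMT and 13.9 ± 1.12 in HS (log2 change 0.37, limma adjusted p = 0.0437). Dnmt1 stood at 29.8 ± 1.04 FPKM in HS_AOSFMT and 37.3 ± 4.04 in HS (log2 change -0.31, limma adjusted p = 0.0477). The calls ended without any one of 14 libraries for Fam208a (up to 0.153) and of 13 for Dnmt1 (up to 0.197 without HS 1). Of 12 KRAB zinc finger genes with described targets, 11 had an entry, 9 were tested and the F-test called 0 (against 5.08% of all genes), with 2 at an unadjusted p under 0.05. The smallest values were those of Zfp69 (limma adjusted p = 0.0768), the imprint regulator Zfp57 (0.169), the retroelement repressor Zfp708 (0.213) and Rsl1 (0.302), a repressor of male-specific liver genes. In HS_AOSFMT against HS 1 of the 9 was called higher (11.1%, against 8.08% of all genes). This was Zfp69, at 4.03 ± 0.439 FPKM in HS_AOSFMT and 2.44 ± 0.568 in HS (log2 change 0.56, limma adjusted p = 0.0467), and the call ended without any one of 10 libraries (up to 0.152 without HS 1).

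Markers of spleen cell types and of other tissues were read beside the pair. All 6 neutrophil markers were detected in every group, and their share of the summed FPKM was 0.214% to 0.284% in HS_AOSFMT, 0.114% to 0.158% in HS_conFMT, 0.0754% to 0.118% in HS_AOS, 0.11% to 0.298% in HS, 0.0747% to 0.191% in AOS and 0.117% to 1.82% in control. Its rank correlation with the pair was 0.665 for Zfp979 and 0.639 for Zfp984, and its part in their levels was not tested. All 8 pancreatic acinar markers were detected in every group, at 0.000412% to 0.00533% in HS_AOSFMT, 0.00656% to 0.359% in HS_conFMT, 0.0489% to 2.6% in HS_AOS, 0.251% to 2.27% in HS, 0.00353% to 0.0709% in AOS and 0.00123% to 0.173% in control, with rank correlations of -0.391 and -0.395, and their part was not tested either. Erythroid markers took 8.54% to 26.2% of the FPKM, and B cell, T cell, plasma cell and red pulp macrophage markers were detected in all libraries, which were labelled spleen. The rank correlations of all lists other than neutrophil and acinar markers with the pair lay between -0.158 and 0.317. No library stood at 0 for the 4 Y-linked genes read.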

How the data were processed

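Spleen RNA was sequenced in 18 libraries. Per the labels' protocols, frozen spleens were extracted with Trizol and column-purified RNA went into Illumina libraries. Reads were aligned with Bowtie 0.12.2 to mm10, per the submitters' processing notes; the counting tool, annotation and treatment of multiply matching reads were not given in the sources used here. In all, the deposited table holds 19326 lines of 19323 symbols; its values were read as FPKM made by the authors, since 2-decimal values with unequal totals fit that unit, which the file leaves unnamed. Summed FPKM ran from 666441 to 831448. Absolute depth is not given, so no counting interval is stated. Low-value steps of 26 genes (tolerance 0.15) put 1 read at a relative worth of 0.947 to 1.02 between libraries. Genes were kept only where their steps matched across libraries within that tolerance, so this range cannot show whether depth was alike.

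The tests covered 12967 genes, those reaching 1 FPKM in 3 or more libraries. A linear model of log2(FPKM + 1) with 1 term per group was fitted to the 18 libraries together by limma 3.58.1 (R 4.3.3), with trend and robust settings (12 residual degrees of freedom, 3.38 prior), two-sided, Benjamini-Hochberg adjusted within a test, threshold 0.05; genes past it are called. The fit was tested on simulated data. Levels of Zfp979 and Zfp984 are described on log2(FPKM + 0.1) without a test, since both were chosen from these values. Members and lists were chosen with earlier results of these data known. Named are the pair, tested neighbours that are zinc finger genes or called, the 5 most and 3 least like genes by Pearson's r, the 10 genes with the widest step between libraries (predicted genes and antigen receptor segments left out), and up to 4 genes of each list with the smallest F-test p. Other genes named, Gm13212, Masp2, Fam208a, Zfp965, Zfp966, Zfp967 and the strain-variable genes, were picked after their values were seen. Neighbours and transcripts come from GENCODE M21, promoters from RefSeq. Zinc finger neighbours were taken by symbol, Zfp and a number or Rex2, so zinc finger genes under other names were not counted among them. Alternatives were the pseudocount, the filter, TPM rescaling, a replicate block, fits of 2 groups alone, and leaving out each library. Some neighbours that the naming rule covers are not reported here by name.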

Additional observations from a re-analysis of the deposited data

How the results depend on the processing

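Directions of the 12 differences described for Zfp979 and Zfp984 held in all alternatives run. The difference of Zfp979 in HS_AOS against HS was -3.07 with a pseudocount of 1 and -3.92 with 0.5, and its size therefore depends on the pseudocount. The count of genes with a step of at least 2 was 8, 14 and 59 with a pseudocount of 1, of 0.5, and with 2 libraries on either side.

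Leaving out 1 library gave -5.99 to -5.62 for Zfp979 and -2.32 to -1.85 for Zfp984 in HS_AOS against HS. The ranges were 0.66 to 1.31 and 0.48 to 0.95 in HS_AOSFMT against HS, and -2.72 to -0.96 and -1.41 to -0.71 in HS_conFMT against HS. They were 0.12 to 0.75 and 0.24 to 0.77 in HS against control, and -3.62 to -1.29 and -1.08 to -0.37 in AOS against control. In HS_AOSFMT against HS_conFMT they were 1.92 to 3.68 and 1.43 to 2.12. The widest step ran from 1.42 to 2.34 for Zfp979 and from 0.41 to 0.75 for Zfp984. The correlation of Zfp979 with Zfp984 ran from 0.959 to 0.969 and that with Zfp985 from 0.923 to 0.945.

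Counts of called genes moved more. With 2 groups fitted alone, 1 gene was called in HS_AOS against HS (Zfp979 itself, which supports nothing here because it was chosen on these values), 176 in HS_AOSFMT against HS_conFMT, and 0 each in HS_conFMT against HS and HS against control. Without the filter on low values the counts were 3 in HS_conFMT against HS, 8 in HS against control and 7 in AOS against control, and with a pseudocount of 0.1 they were 1 in HS against control and 2 in AOS against control. After rescaling to TPM 0 were called in HS_conFMT against HS, 256 in HS_AOSFMT against HS_conFMT and 184 by the F-test. Neighbours called after rescaling numbered 0 in HS_AOSFMT against HS, 2 in HS_AOSFMT against HS_conFMT and 2 by the F-test; 1 was called between the transplants fitted alone. Zfp982 then had an F-test adjusted p of 0.122 by limma (0.0527 without the filter), and Zfp985 one of 0.102 between the transplants fitted alone. The causes were not tested.

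Leaving out 1 library, the genes called ran from 0 to 3 in HS_AOS against HS, 203 to 751 in HS_AOSFMT against HS, 0 to 0 in HS_conFMT against HS, 3 to 20 in HS against control, 1 to 49 in AOS against control, 199 to 1201 in HS_AOSFMT against HS_conFMT and 81 to 1525 by the F-test. Neighbours called ran from 0 to 1 in HS_AOS against HS and in HS against control, from 1 to 4 between the transplants, from 0 to 4 by the F-test, and were 0 in the other 3 comparisons. Other Zfp genes called higher in HS_AOSFMT against HS ran from 5 to 33. Without a library of another group this count ran higher. It was 43 without AOS 1 (14.1%, against 6.17% of all genes) and up to 95 without control 3 (31.2%, against 11.9%).

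Deviations from the group means correlated with a median of 0.0179 over the 45 same-numbered pairs (15 over 0.1). The median was -0.0259 over the 90 others (30 over 0.1). These medians do not exclude that libraries were paired by number. With the replicate number as a block, limma called 1453 genes in HS_AOSFMT against HS, against 1197 without it. It called 909 between the transplants, against 759, and 850 by the F-test, against 659. In HS_conFMT against HS it called 0 genes, against 1. Neighbours called in HS_AOSFMT against HS numbered 2 with the block. Depth is unknown, so levels of Zfp979 near 0 cannot be told from absence.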

Other observations

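Across all genes tested, 34 had a step of at least 2 on log2(FPKM + 0.1) that left at least 3 libraries on either side. The widest steps among named genes were those of LOC100043921 (6.78, with 4 libraries below), Hist2h3c1 (5.35), Hist2h2aa2 (4.08), Zfp973 (3.66), LOC100862468 (3.29), the spermatid gene Tnp1 (3.23), Hist2h3b (3.00), Kap (2.92), Mup12 (2.83) and the interferon-induced gene Ifi44l (2.48). LOC100043921 was listed at 0 in its low libraries and reached 27.3 FPKM in the highest. Zfp973 was listed at 0 in the 14 libraries below its step and reached only 1.91 FPKM. Steps that start at 0 depend on the pseudocount. For Tnp1 and Kap the libraries above the step were the 3 control libraries. Tnp1 stood there at 3.47 to 39.49 FPKM, against at most 0.28 elsewhere. Kap stood there at 13.33 to 20.97 FPKM, against at most 1.67 elsewhere. Neither Zfp979 (1.42) nor Zfp984 (0.41) was among these 34 genes over the 18 libraries, although without HS_conFMT 3 the step of Zfp979 was 2.34.

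Of 17 genes known to vary between mouse strains, 15 had an entry and were tested, and 0 had a step of at least 2. Of these, 2 had spans above the 7.47 of Zfp979. The beta globin gene Hbb-bs ran from 44.2 to 37546 FPKM (span 9.73), and Hbb-bt ran from 11.6 to 7571 FPKM (span 9.34). H2-Ea-ps ran from 28.5 to 662 FPKM, a smaller span of 4.53. Masp2, a complement protease gene in the window around the pair, ran from 0.03 to 2.79 FPKM with a step of 1.42, as wide as that of Zfp979, and had r of 0.46 with Zfp979.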
